A study of Arabidopsis thaliana with 18 samples.

Results

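The pseudo-response regulator genes of the circadian clock, PRR9 (AT2G46790), PRR7 (AT5G02810), PRR5 (AT5G24470), PRR3 (AT5G60100) and TOC1 (AT5G61380, also called PRR1), were followed through an RNA-seq experiment on ambient temperature in Arabidopsis thaliana. They were taken by locus from the deposited count table and are 5 of its 33655 genes. Whole light-grown seedlings were kept at 28°C or at 22°C for 24 hours in continuous white light before RNA extraction, and 3 libraries were made per group by 3′ Tag-Seq, which reads only the 3′ end of each transcript. The 6 groups were seedlings labelled hec1hec2 at 28°C and at 22°C, pifQ at 28°C and at 22°C, and Col-0 wild type at 28°C and at 22°C. hec1hec2 is a double mutant of HEC1 and HEC2, genes of bHLH transcription factors, and pifQ is a quadruple mutant of PIF1, PIF3, PIF4 and PIF5, genes of phytochrome interacting factors. The study generated its mutants from the Col-0 ecotype, and the labels name no further allele. The labels give the seedlings as 5 days old at the transfer, whereas the methods of the study give a later age. The hour of harvest is not given in the sources used here, and each group was sampled at 1 time. Whether the groups stood at the same phase of the clock was not tested. Samples of 1 time cannot tell a shift of phase from a change of level.

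In the Arabidopsis clock, PRR9, PRR7, PRR5, PRR3 and TOC1 are transcribed in waves that follow each other from morning to evening. PRR9, PRR7, PRR5 and TOC1 proteins bind DNA through their CCT domain and repress transcription, with the morning MYB genes CCA1 and LHY among their targets, and CCA1 and LHY in turn repress evening genes such as TOC1. PRR3 is best known for protecting TOC1 protein from the F-box protein ZTL, which marks TOC1 for degradation. Members of the family also restrain the growth that warmth promotes through PIF4.

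The 300 bases before each annotated start were read from the RefSeq copy of the genome (TAIR10.1) and searched on both strands for 4 motifs of clock and light control. These were the G-box (CACGTG), which bHLH factors such as PIFs bind, the evening element (AAATATCT) and the CCA1-binding site (AAAAATCT), which CCA1 and LHY bind, and the LUX binding site (GATACG or GATTCG). Windows that held a match are shown from 5′ to 3′ on the strand of the gene, each ending at the base before the start, with the matched letters in capitals, because they show which members share a motif.
PRR9 promoter, chr2:19232307-19232606, plus strand: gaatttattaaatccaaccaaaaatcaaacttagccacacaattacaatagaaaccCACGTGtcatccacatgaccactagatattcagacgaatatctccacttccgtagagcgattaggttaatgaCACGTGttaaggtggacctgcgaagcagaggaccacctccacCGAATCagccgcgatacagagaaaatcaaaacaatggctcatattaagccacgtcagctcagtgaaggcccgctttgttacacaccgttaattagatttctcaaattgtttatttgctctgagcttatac
PRR7 promoter, chr5:642031-642330, minus strand: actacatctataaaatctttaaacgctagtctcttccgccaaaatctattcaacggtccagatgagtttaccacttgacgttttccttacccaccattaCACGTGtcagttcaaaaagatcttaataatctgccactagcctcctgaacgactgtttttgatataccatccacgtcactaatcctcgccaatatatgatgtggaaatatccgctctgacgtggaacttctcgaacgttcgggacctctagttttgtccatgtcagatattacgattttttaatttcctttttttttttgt
PRR5 promoter, chr5:8358547-8358846, minus strand: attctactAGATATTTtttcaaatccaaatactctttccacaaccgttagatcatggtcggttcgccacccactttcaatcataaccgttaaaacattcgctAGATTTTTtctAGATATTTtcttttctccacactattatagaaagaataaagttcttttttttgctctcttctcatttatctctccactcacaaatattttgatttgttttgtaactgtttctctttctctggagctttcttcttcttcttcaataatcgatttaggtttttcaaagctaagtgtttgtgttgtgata
TOC1 promoter, chr5:24674663-24674962, plus strand: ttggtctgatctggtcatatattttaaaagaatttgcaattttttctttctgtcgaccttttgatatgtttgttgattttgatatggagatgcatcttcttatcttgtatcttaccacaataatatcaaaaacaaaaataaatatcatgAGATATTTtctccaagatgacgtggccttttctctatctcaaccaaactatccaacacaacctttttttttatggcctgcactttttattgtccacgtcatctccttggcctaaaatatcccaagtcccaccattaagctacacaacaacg

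PRR9 and PRR7 had the G-box, PRR9 at 244 and 172 bases and PRR7 at 201 bases before the start. The evening element lay on the opposite strand of PRR5, at 292 and 187 bases, and of TOC1, at 151 bases. PRR5 also had a CCA1-binding site at 198 bases and PRR9 a LUX binding site at 130 bases, both on the opposite strand. PRR3 (window chr5:24201416-24201715, minus strand) had none of the 4 motifs. No match overlapped another. Of 27443 windows of the same length at protein-coding genes of the nuclear chromosomes, 7.09% held the G-box, 5.64% the evening element, 7.94% the CCA1-binding site and 14.3% the LUX binding site. A match is a run of letters and not a site shown to be bound.

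**Figure D1:**
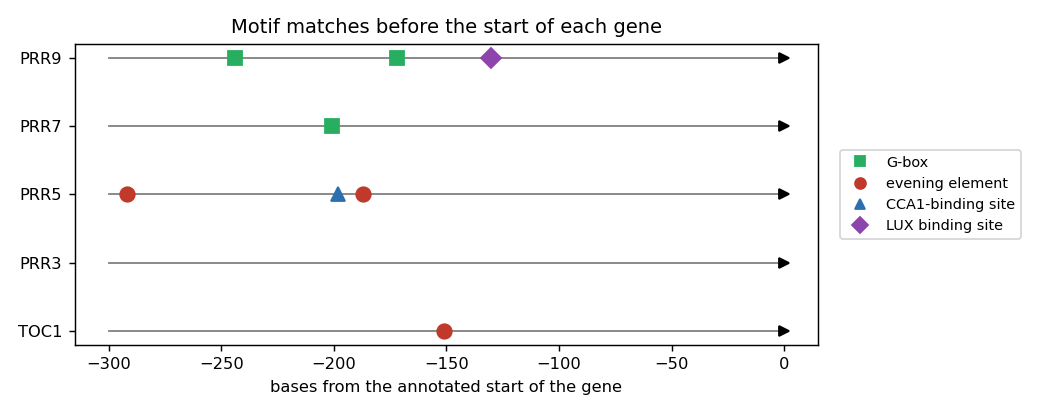
Matches to 4 motifs before the annotated start of each pseudo-response regulator gene, by distance in bases from the start (arrowhead at 0, grey line for the 300 bases searched). PRR9 and PRR7 had the G-box, PRR5 and TOC1 the evening element, and PRR3 no match.

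The genes themselves lie at chr2:19232607-19235179 (PRR9, plus strand), chr5:637681-642030 (PRR7, minus strand), chr5:8356204-8358546 (PRR5, minus strand), chr5:24197971-24201415 (PRR3, minus strand) and chr5:24674963-24678550 (TOC1, plus strand) in TAIR10.1. In this assay about 1 tag is read per transcript whatever its length, so that levels, given as CPM after TMM normalization (normalised CPM, tags of a gene scaled to the size of the library), can be set beside each other between genes. Library totals were between 3631558 and 6285632 counts (median 4599322). edgeR's quasi-likelihood test was applied in 1 model of the 6 groups, and a gene was called at a Benjamini-Hochberg adjusted p (FDR) of at most 0.05 over the 18078 genes that passed the filter on low counts. PRR7, PRR5, PRR3 and TOC1 passed that filter and PRR9 did not. Fold changes are log2 values with their standard error (SE), and intervals are at 95%. Where the libraries of groups are said to overlap or to lie apart, this is a description. The share of all genes whose groups lie apart was not computed. RNA of whole seedlings cannot tell fewer cells of a type from less RNA per cell.

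Some libraries went against their labels or stood apart. HEC1 had 3308, 3289 and 3282 counts in the libraries labelled hec1hec2 at 22°C, and only 33, 64 and 34 in the Col-0 libraries of that temperature. A similar excess was seen at 28°C, where the libraries labelled hec1hec2 had 2691, 3271 and 2818 counts of HEC1 and those of Col-0 had 39, 47 and 68 counts. HEC2 was scarce throughout, with 0 counts in each library labelled hec1hec2 at 22°C and 6, 2 and 4 at 28°C, against 3, 14 and 10 in Col-0 at 22°C and 5, 8 and 7 at 28°C. A tag at the 3′ end does not show whether a transcript is intact, and the group is therefore called by its label. In pifQ, PIF3 and PIF5 had from 1 to 12 counts per library and from 56 to 553 counts in Col-0, while PIF1 and PIF4 were still counted. Replicate 2 of pifQ at 22°C had 10.1% of its counts on chromosome 5, on which PRR7, PRR5, PRR3 and TOC1 lie, whereas the other 17 libraries had from 19.3% to 20.6%. Relative to its pair of sister libraries, genes on either side of PRR5, PRR3 and TOC1 stood at a median of 48.6%, 49.5% and 49.2% of their normalised level in this library, against 93.9% around PRR7 and 96.5% around PRR9. On chromosome 1, where LHY, GI, FKF1, LWD1, RVE7, CDF5 and TPL of the clock genes lie, it had 41.2% of its counts, against 29.1% to 30.1% in the other 17 libraries. Values without it are given beside those of the members and of the clock genes named below whose call or direction then changed. All 6 shoot markers and 7 root markers on fixed lists were counted in every library, as labelled for whole seedlings.

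PRR7 had the widest range of normalised CPM of the 5 genes, and it was higher at 28°C in every genotype. Its transcript rose 10.6-fold at 28°C in the libraries labelled hec1hec2 (interval 8.01 to 13.9), 5.16-fold in pifQ (4.06 to 6.55) and 5.12-fold in Col-0 (4.02 to 6.53). PRR5 rose with it, by 3.01-fold in the libraries labelled hec1hec2, 2.50-fold in pifQ and 1.88-fold in Col-0. PRR3 rose 2.13-fold in the libraries labelled hec1hec2, and TOC1 was not called in any genotype in this model of all 18 libraries. The members called were thus 3 of the 4 tested in the libraries labelled hec1hec2 and 2 of 4 in pifQ and in Col-0, each of them higher at 28°C. Of all genes tested, 29.2% were called in the libraries labelled hec1hec2, 27.4% in pifQ and 26.0% in Col-0, and the shares called as higher were 14.9%, 13.1% and 13.2%. With a change of at least 2-fold added to the FDR, 3, 2 and 1 of the 4 members were called in that order, beside 8.93%, 7.82% and 7.94% of all tested genes.

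Markers of tissue moved with temperature as well, and not all in the same direction. The 6 shoot markers summed to between 32570 and 35937 normalised CPM at 28°C in the libraries labelled hec1hec2, against 44873 to 56000 normalised CPM at 22°C. The sums were 39524 to 42332 normalised CPM in pifQ at 28°C, against 44879 to 61084 at 22°C. In Col-0 they were 35302 to 38405 at 28°C, against 44863 to 46721 at 22°C. RBCS1A was the most abundant of the 6 and weighed most in these sums. Its means at 28°C and 22°C were 11733 and 24974 normalised CPM in the libraries labelled hec1hec2. They were 14327 and 25660 in pifQ, and 12257 and 22287 in Col-0. By the means, RCA, GAPB and CA1 were also lower at 28°C in each genotype, and CAB3 and PSAF were higher. Of the 6, 4 were called as lower and 1 as higher in the libraries labelled hec1hec2, 3 and 1 in pifQ, and 4 and 2 in Col-0. Of the 7 root markers, 2 were called as higher and 1 as lower both in the libraries labelled hec1hec2 and in Col-0, and 0 in pifQ in edgeR's quasi-likelihood test. The part of tissue proportions in the temperature differences was not tested.

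PRR7, whose protein represses CCA1 and LHY, had 51.0, 48.8 and 47.5 normalised CPM in the libraries labelled hec1hec2 at 28°C, against 4.45, 3.74 and 5.76 normalised CPM at 22°C. Col-0 had 59.6, 60.2 and 70.4 normalised CPM of PRR7 at 28°C, against 11.8, 13.9 and 11.5 normalised CPM at 22°C. No library at 22°C came near any library at 28°C, and at 22°C the libraries labelled hec1hec2 lay below all those of Col-0. pifQ had 70.3, 64.0 and 66.1 normalised CPM of PRR7 at 28°C, against 8.84, 15.3 and 15.2 normalised CPM at 22°C. The pifQ levels overlapped those of Col-0 at both temperatures. The log2 fold change at 28°C was 3.40 in the libraries labelled hec1hec2 (SE 0.19, FDR = 3.6e-12), 2.37 in pifQ (SE 0.17, FDR = 2.1e-10) and 2.36 in Col-0 (SE 0.17, FDR = 3.3e-10), from edgeR's quasi-likelihood test.

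In order of its mean, PRR7 stood at 66.8 ± 3.2 normalised CPM in pifQ at 28°C and 63.4 ± 6.0 in Col-0 at 28°C (SD, n = 3 each), which overlapped. It stood at 49.1 ± 1.8 normalised CPM in the libraries labelled hec1hec2 at 28°C, below both. The 22°C groups followed, with 13.1 ± 3.7 normalised CPM in pifQ and 12.4 ± 1.3 in Col-0, which overlapped, and 4.65 ± 1.0 in the libraries labelled hec1hec2, which overlapped no other group. Without replicate 2 the pifQ mean at 22°C was 12.03 normalised CPM, just below that of Col-0.

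PRR5, which represses CCA1, LHY and further MYB genes of the clock, had 20.3, 16.8 and 18.1 normalised CPM in the libraries labelled hec1hec2 at 28°C, against 7.19, 5.82 and 5.09 normalised CPM at 22°C. pifQ had 15.0, 19.5 and 16.8 normalised CPM of PRR5 at 28°C, against 7.11, 5.19 and 8.07 normalised CPM at 22°C. Col-0 had 18.1, 18.4 and 20.1 normalised CPM of PRR5 at 28°C, against 9.73, 9.32 and 11.0 normalised CPM at 22°C. The 3 genotypes thus overlapped at 28°C, where their means lay between 17.1 and 18.8 normalised CPM. At 22°C every library of both mutants was below every Col-0 library. In the model of all 18 libraries, PRR5 was called against Col-0 at 22°C in neither mutant. The log2 fold change at 28°C was 1.59 in the libraries labelled hec1hec2 (SE 0.19, FDR = 4.8e-07), 1.32 in pifQ (SE 0.19, FDR = 1.1e-05) and 0.91 in Col-0 (SE 0.18, FDR = 0.00055), from edgeR's quasi-likelihood test. Without replicate 2 of pifQ at 22°C, which had the lowest PRR5 level of that group, the value in pifQ was 1.18 and still called.

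PRR3, the partner of TOC1 protein, had 13.9, 14.1 and 17.5 normalised CPM in the libraries labelled hec1hec2 at 28°C, against 5.99, 7.27 and 8.19 normalised CPM at 22°C. Col-0 had 10.2, 14.8 and 9.64 normalised CPM of PRR3 at 28°C, against 11.8, 10.9 and 11.0 normalised CPM at 22°C. The groups were apart in the libraries labelled hec1hec2 and overlapped in Col-0. pifQ had 17.1, 10.4 and 8.29 normalised CPM of PRR3 at 28°C, against 16.3, 4.15 and 9.68 normalised CPM at 22°C, where the lowest is replicate 2. The pifQ libraries spread as widely within a temperature as between temperatures. The log2 fold change of PRR3 at 28°C was 1.09 in the libraries labelled hec1hec2 (SE 0.31, FDR = 0.0089), 0.20 in pifQ (SE 0.30, FDR = 0.67) and 0.03 in Col-0 (SE 0.31, FDR = 0.96), from edgeR's quasi-likelihood test. The interval in Col-0, from -0.61 to 0.66, leaves room for a change of 1.58-fold upwards. The call in the libraries labelled hec1hec2 was lost without their replicate 1 at 22°C (log2 fold change 0.97, FDR = 0.051, same test), and without replicate 2 of pifQ at 22°C the value in pifQ was -0.15 (FDR = 0.71).

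TOC1, the evening member, was the most abundant of the 5 genes at 22°C. It had 47.6, 41.6 and 37.7 normalised CPM in the libraries labelled hec1hec2 at 28°C, against 30.8, 26.4 and 33.0 normalised CPM at 22°C. Col-0 had 48.7, 42.1 and 38.6 normalised CPM of TOC1 at 28°C, against 47.6, 41.4 and 49.2 normalised CPM at 22°C. The 22°C libraries labelled hec1hec2 were thus lower than every library of Col-0 and than their own at 28°C. pifQ had 50.8, 46.6 and 46.6 normalised CPM of TOC1 at 28°C, against 41.0, 20.0 and 45.2 normalised CPM at 22°C, where the lowest is again replicate 2. The log2 fold change of TOC1 at 28°C was 0.49 in the libraries labelled hec1hec2 (SE 0.19, FDR = 0.055), 0.43 in pifQ (SE 0.19, FDR = 0.094) and -0.09 in Col-0 (SE 0.19, FDR = 0.76), from edgeR's quasi-likelihood test. Without replicate 2 of pifQ at 22°C the value in the libraries labelled hec1hec2 was called (0.49, SE 0.12, FDR = 0.0020), and that in pifQ was 0.16 (FDR = 0.41). In pifQ the gene was called in 3 of 25 alternatives. Among them were the fits without replicate 3 of pifQ at 22°C (0.63, FDR = 0.020) and without the filter on low counts (0.43, FDR = 0.049), in the same test. In the libraries labelled hec1hec2 it was called in 6 of 25 alternatives. Among them were no filter (FDR = 0.035) and the libraries compared alone (FDR = 0.0052), in the same test. Leaving out replicate 1 (FDR = 0.047) or 3 (FDR = 0.036) of pifQ at 22°C did so too.

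PRR9, the morning member, was at the limit of this depth. It had 1, 5 and 2 counts in the libraries labelled hec1hec2 at 28°C, against 1, 2 and 2 counts at 22°C. pifQ had 6, 6 and 6 counts of PRR9 at 28°C, against 0, 3 and 3 at 22°C. Col-0 had 5, 1 and 1 counts of PRR9 at 28°C, against 2, 0 and 1 at 22°C. The pifQ libraries at 28°C lay above those of every other group, at 1.25 ± 0.034 normalised CPM (SD, n = 3). Their 3 counts were equal at 6, so this SD says little about the error of counting so few tags. Each other group overlapped its neighbours in order among the rest, with means between 0.24 and 0.57 normalised CPM. The filter of the main test removed the gene. In the 3 alternatives that kept it, its FDR was between 0.17 and 1 over 22 comparisons, and no fold is given, since most libraries were at or under 3 counts.

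**Figure D2:**
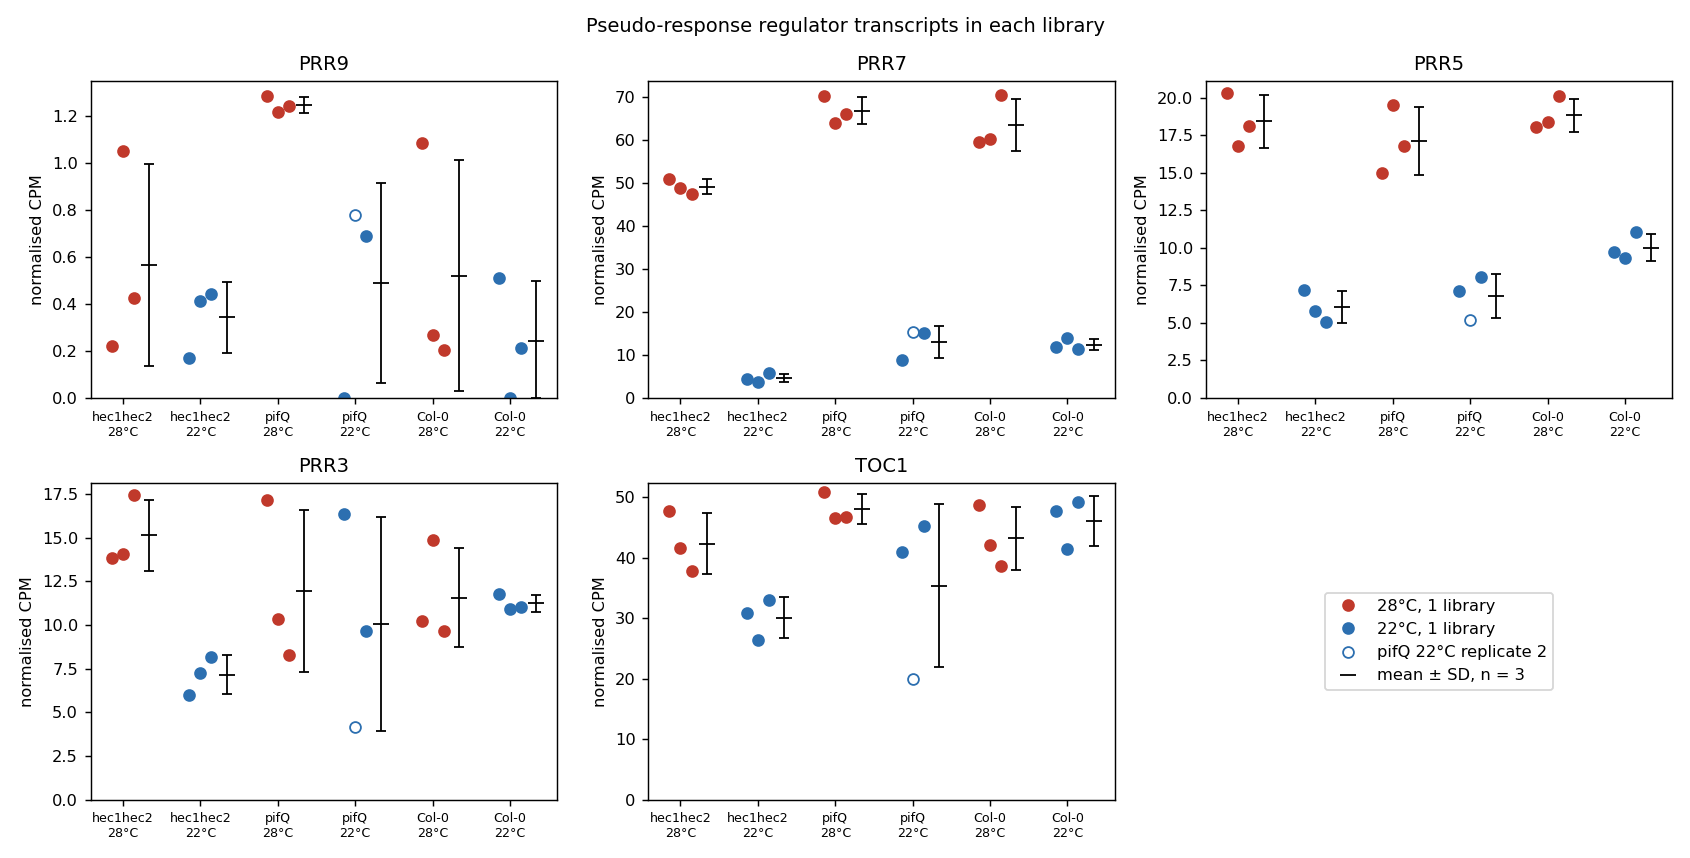
Normalised CPM of the 5 pseudo-response regulator genes in each library (points, red for 28°C and blue for 22°C), with mean ± SD of the 3 libraries beside them (bars stopped at 0) and an open point for replicate 2 of pifQ at 22°C. PRR7 and PRR5 separate by temperature in all 3 genotypes, and PRR3 does so in the libraries labelled hec1hec2. TOC1 separates in the libraries labelled hec1hec2 and in pifQ, but was called in neither in the model of all 18 libraries. The share of all genes that separate was not computed. PRR9 stays below 1.3 normalised CPM.

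The next question was whether the genotypes differed from Col-0 at one temperature. In the libraries labelled hec1hec2 at 22°C, the 4 tested members had negative log2 fold changes against Col-0, where the median over all tested genes was 0.0030. Of the 4, 1 was called, PRR7, where 1.70% of all tested genes were called and 0.874% as lower. PRR7 fell to 4.65 ± 1.0 normalised CPM in these libraries, against 12.4 ± 1.3 normalised CPM in Col-0 (SD, n = 3 each), a log2 fold change of -1.41 (SE 0.22, FDR = 0.00053, edgeR's quasi-likelihood test). The values of the others were -0.72 for PRR5 (SE 0.21, FDR = 0.085), -0.66 for PRR3 (SE 0.32, FDR = 0.49) and -0.61 for TOC1 (SE 0.19, FDR = 0.13) in the same test. Without replicate 2 of pifQ at 22°C, a library that is in neither group but adds to the shared spread, PRR5 (FDR = 0.034) and TOC1 (FDR = 0.0019) were called as well, with log2 fold changes of -0.72 and -0.62, and PRR3 was not (FDR = 0.16). In that fit 3.52% of all tested genes were called.

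At 28°C none of the 4 was called between the libraries labelled hec1hec2 and Col-0, where 1.44% of all tested genes were. PRR7 was lower in each library labelled hec1hec2 than in any of Col-0, with a log2 fold change of -0.37 (interval -0.67 to -0.07, unadjusted p = 0.018, FDR = 0.29, edgeR's quasi-likelihood test). PRR5 had -0.04 (interval -0.38 to 0.31), TOC1 -0.03 (interval -0.42 to 0.36) and PRR3 0.40 (interval -0.20 to 1.01), and the libraries of the groups overlapped for these 3 genes.

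The libraries labelled hec1hec2 also differed from Col-0 in root markers. The summed level of the 7 root markers was between 306 and 357 normalised CPM in the libraries labelled hec1hec2 at 22°C, against 169 to 232 normalised CPM in Col-0 at 22°C, and 3 of the 7 were called as higher, beside 0.830% of all tested genes. At 28°C the sums were between 258 and 391 normalised CPM in the libraries labelled hec1hec2, against 135 to 189 normalised CPM in Col-0, and 4 of the 7 were called as higher, beside 0.968% of all tested genes. The counts were 4 of the 7 at 22°C and 6 of the 7 at 28°C without replicate 2 of pifQ at 22°C. In that fit 3.52% of all tested genes were called in either direction at 22°C and 3.83% at 28°C. The 6 shoot markers summed to between 44873 and 56000 normalised CPM in the libraries labelled hec1hec2 at 22°C, against 44863 to 46721 normalised CPM in Col-0 at 22°C, and 0 of the 6 were called in edgeR's quasi-likelihood test. No marker was at 0 in any library. In pifQ the 7 root markers summed to between 110 and 156 normalised CPM at 22°C, below Col-0, and between 120 and 141 at 28°C, overlapping Col-0. At both temperatures 0 of the 7 were called against Col-0. Without replicate 2 of pifQ at 22°C, 2 of the 7 were called as lower in pifQ at 28°C, beside 4.08% of all tested genes in either direction. The part of tissue proportions in the PRR7 difference and in the pifQ comparisons below was not tested.

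In pifQ none of the 4 members was called against Col-0 at 22°C, where 0.0553% of all tested genes were called, or at 28°C, where 1.47% were. The Col-0 libraries of these comparisons are those also set against the libraries labelled hec1hec2. For PRR7 the log2 fold change between pifQ and Col-0 was 0.07 at 22°C (interval -0.33 to 0.46) and 0.07 at 28°C (interval -0.22 to 0.37), and without replicate 2 of pifQ the value at 22°C was -0.06. At 22°C PRR5 had -0.55 (SE 0.21, unadjusted p = 0.013, FDR = 0.38), TOC1 -0.37 (FDR = 0.47) and PRR3 -0.11 (FDR = 0.92) in edgeR's quasi-likelihood test. Replicate 2 was the lowest pifQ library at 22°C for these 3 genes, and without it the values were -0.41, -0.10 and 0.23. At 28°C they were -0.14, 0.15 and 0.06, and that of PRR3 was -0.27 without replicate 1 of pifQ at 28°C, its highest pifQ library there.

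**Figure D3:**
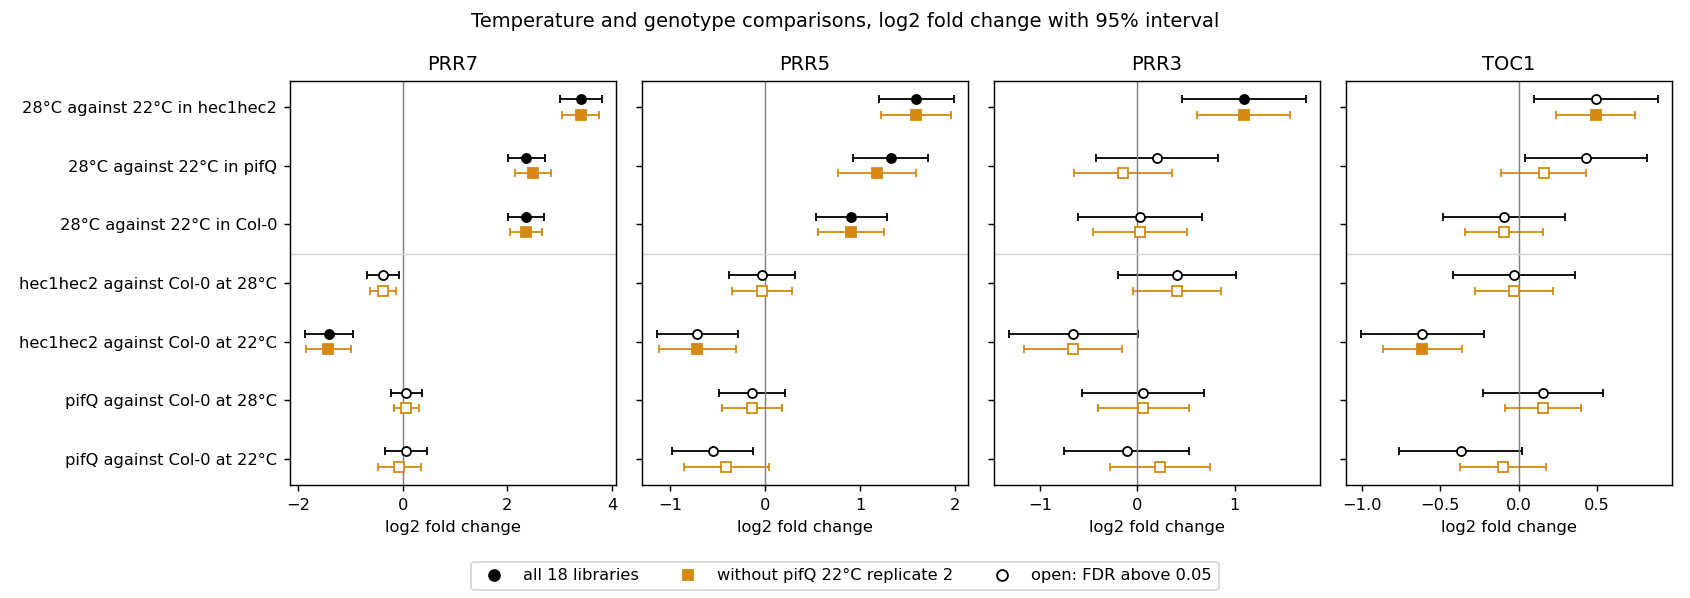
Log2 fold changes of the 4 tested members with their 95% interval, for 28°C against 22°C in each genotype (upper 3 rows) and for each mutant against Col-0 (lower 4 rows), from all 18 libraries (black circles) and without replicate 2 of pifQ at 22°C (orange squares), with open symbols where the FDR was above 0.05. PRR7 at 22°C in the libraries labelled hec1hec2 was 1.41 below Col-0 on the log2 scale, and at 28°C it was 0.37 below.

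Whether warmth acted more strongly in one genotype was tested by the interaction of temperature with genotype. The fold change of PRR7 in the libraries labelled hec1hec2 was 2.06 times that in Col-0 (interval 1.40 to 3.02, log2 difference 1.04, SE 0.27), with an unadjusted p of 0.00063 and an FDR of 0.41 in edgeR's quasi-likelihood test, so that it was not called, and 0.0166% of all tested genes were. The FDR was 0.072 without replicate 2 of pifQ at 22°C and 0.034 in a model of the hec1hec2 and Col-0 libraries alone. PRR3 differed in the same direction by 1.06 (unadjusted p = 0.022), PRR5 by 0.68 (unadjusted p = 0.017) and TOC1 by 0.59 (unadjusted p = 0.039), each with an FDR of 1.0 in the same test. These differences are built from the same 22°C libraries as the genotype comparison above. In pifQ 0 of the 4 members were called for the interaction and 0 had an unadjusted p under 0.05 in edgeR's quasi-likelihood test, with 0.0608% of all tested genes called, and the value for PRR7 was 0.01 (interval -0.49 to 0.51).

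The rest of the clock was examined with 6 lists of 34 genes, of which 31 were tested. At 28°C, 13 of the 31 rose and 6 fell in the libraries labelled hec1hec2, 15 rose and 5 fell in pifQ, and 14 rose and 6 fell in Col-0. The shares of all tested genes called as higher were the 14.9%, 13.1% and 13.2% given above, and those called as lower were 14.3% in the libraries labelled hec1hec2, 14.3% in pifQ and 12.8% in Col-0. The median log2 fold change over the 31 genes was 0.37, 0.43 and 0.42 in that order, against 0.05, 0.0023 and 0.04 over all genes tested. Among the 9 morning MYB and LNK genes, 3 rose and 3 fell in the libraries labelled hec1hec2, and 5 rose and 3 fell in both pifQ and Col-0. The 3 that fell in every genotype were LHY and CCA1, the targets and repressors of the family, and RVE8, an activator of evening genes that PRR5 represses.

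LHY had 7.54 ± 2.1 normalised CPM in the libraries labelled hec1hec2 at 28°C and 127 ± 21 at 22°C (SD, n = 3 each). In pifQ it had 6.38 ± 0.94 normalised CPM at 28°C and 126 ± 27 at 22°C, and in Col-0 9.05 ± 2.0 at 28°C and 96.5 ± 13 at 22°C. LHY thus had more tags than any of the 5 family members at 22°C and fewer than PRR7, PRR5, PRR3 and TOC1 at 28°C in each genotype, by the group means. Its log2 fold change was -4.07 in the libraries labelled hec1hec2 (SE 0.21, FDR = 4.2e-13), -4.29 in pifQ (SE 0.21, FDR = 5.9e-13) and -3.40 in Col-0 (SE 0.21, FDR = 2.3e-11), from edgeR's quasi-likelihood test. CCA1 had -1.89, -1.24 and -1.06 in the same order, and RVE8 had -2.02, -1.42 and -1.19, all called. LNK1, a coactivator that works with RVE8, rose by 1.66 in the libraries labelled hec1hec2, 1.82 in pifQ and 1.94 in Col-0. Its relatives LNK2 and LNK3 were called as higher in pifQ (1.00 and 0.90) and in Col-0 (1.02 and 0.98), and had 0.31 and 0.19 in the libraries labelled hec1hec2, where they were not called. The interaction was not called for either gene.

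The evening complex of ELF3, ELF4 and the DNA-binding LUX or BOA represses PRR9 and PIF4 among other genes. LUX rose in each genotype, by 1.04 in the libraries labelled hec1hec2, 0.97 in pifQ and 0.65 in Col-0, and ELF4 was called as lower in Col-0 (-0.76), with -0.09 in the libraries labelled hec1hec2 and -0.53 in pifQ. ELF3 and BOA were not called in any genotype. In the group of GI and the ZTL family, GI, which stabilises ZTL, rose by 2.40 in the libraries labelled hec1hec2, 1.70 in pifQ and 1.96 in Col-0. FKF1, a blue light receptor related to ZTL, rose by 1.15 in the libraries labelled hec1hec2 and had 0.10 in pifQ and 0.38 in Col-0, and ZTL was called in pifQ with 0.65 (FDR = 0.019, edgeR's quasi-likelihood test). Without replicate 2 of pifQ at 22°C, ZTL in pifQ was 0.39 and not called (FDR = 0.067), LKP2, the other relative of ZTL, was called there with 0.46, FKF1 in pifQ was 0.29 and not called (FDR = 0.28), and in Col-0 ZTL (0.44) and LKP2 (0.42) were called beside GI. FKF1 was also the 1 gene of the 31 called between the libraries labelled hec1hec2 and Col-0 at 22°C, at 6.41 ± 0.64 normalised CPM in the libraries labelled hec1hec2 and 11.4 ± 1.4 in Col-0 (SD, n = 3 each, FDR = 0.044, edgeR's quasi-likelihood test), where 1.70% of all tested genes were called. RVE8 was called as well when replicate 2 of pifQ at 22°C was left out, as higher in the libraries labelled hec1hec2 (0.52, FDR = 0.030, same test).

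Among 8 output genes, 4 rose and 3 fell in the libraries labelled hec1hec2, 4 rose and 1 fell in pifQ, and 5 rose and 2 fell in Col-0, to be read beside the same shares of all tested genes. RVE1 fell in pifQ too (-0.66) when replicate 2 of pifQ at 22°C was left out, CDF1 rose in the libraries labelled hec1hec2 (0.40), and the interaction of temperature with hec1hec2 was called for RVE1 (-0.88, FDR = 0.047, edgeR's quasi-likelihood test). PIF4, the growth factor that pseudo-response regulators repress, rose by 3.01 in the libraries labelled hec1hec2, 2.31 in pifQ and 2.35 in Col-0, although pifQ is a mutant of PIF4 and 3′ tags do not show an intact transcript. CDF3 and RVE7 also rose in each genotype, and RVE2 fell in each, with -2.18 in the libraries labelled hec1hec2, -2.06 in pifQ and -2.14 in Col-0. Of 4 partner genes, CHE, a TCP factor that works with TOC1 on CCA1, rose by 0.83 in the libraries labelled hec1hec2, 1.35 in pifQ and 1.01 in Col-0, and LWD1 rose in each genotype too. TPL was called as lower in pifQ (-0.52). Without replicate 2 of pifQ at 22°C it had -0.29 there and was not called (FDR = 0.13, edgeR's quasi-likelihood test). The 5 other PRR-like genes gave 2 that were tested, APRR2 and APRR8, and 0 calls for temperature in edgeR's quasi-likelihood test, while APRR4, APRR6 and AT2G46670 had 0 counts in every library. At 28°C CCA1 (-0.75, FDR = 0.033) and LNK2 (-0.84, FDR = 0.0026) were lower in the libraries labelled hec1hec2 than in Col-0, and CDF5 (-1.45, FDR = 0.011) was lower in pifQ than in Col-0, all in edgeR's quasi-likelihood test. These were 2 of the 31 genes for the libraries labelled hec1hec2, where 1.44% of all tested genes were called, and 1 of the 31 for pifQ, where 1.47% were. Without replicate 2 of pifQ at 22°C, 5 of the 31 genes were lower in the libraries labelled hec1hec2 than in Col-0 at 28°C, with LNK3 (-0.69), LNK4 (-0.55) and RVE1 (-0.91) added, beside 3.83% of all tested genes.

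**Figure D4:**
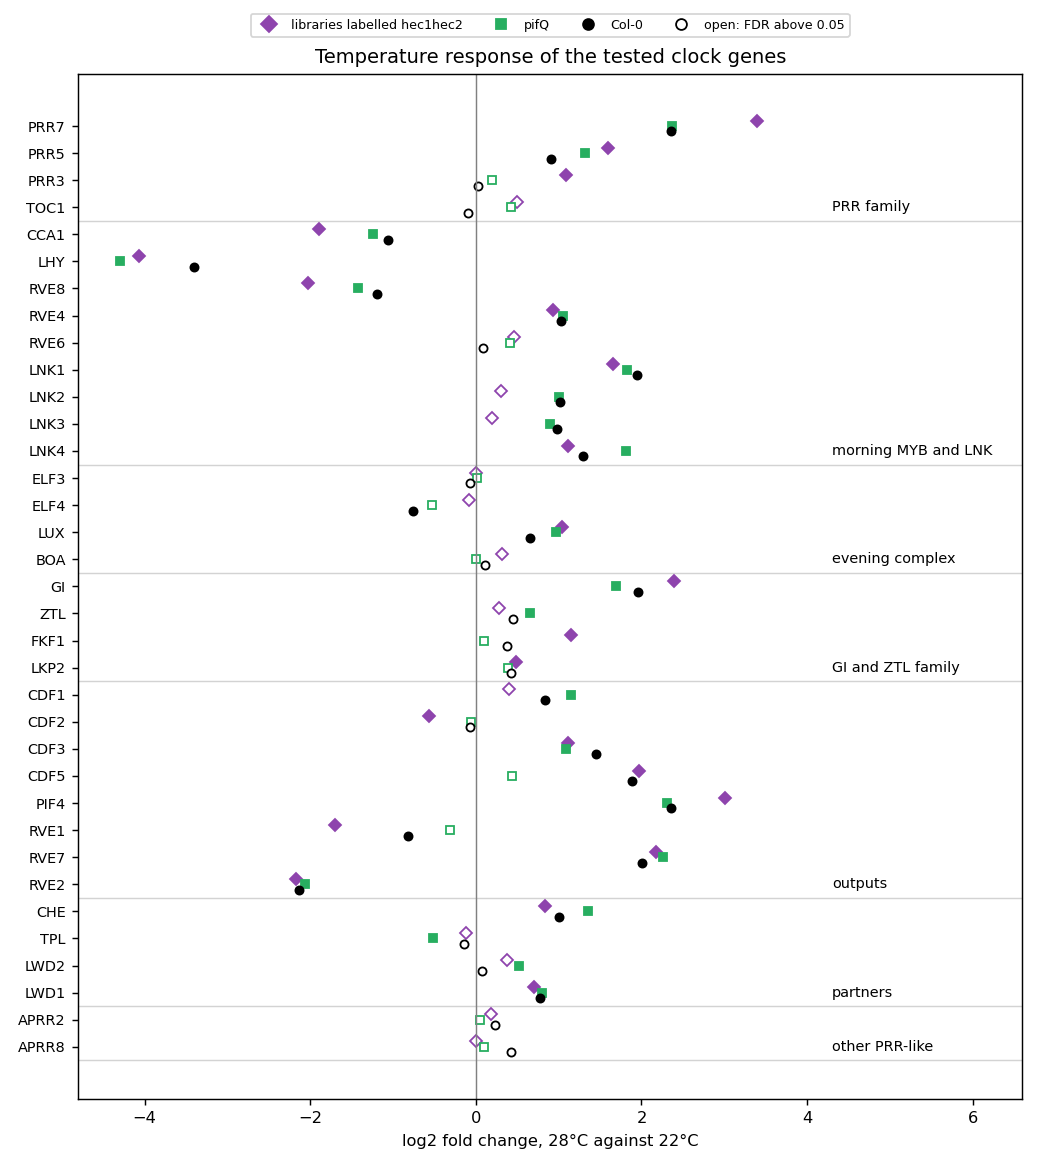
Log2 fold change at 28°C against 22°C for each tested clock gene in the libraries labelled hec1hec2 (purple diamonds), pifQ (green squares) and Col-0 (black circles), grouped by list, with open symbols where the FDR was above 0.05. PRR7, GI and PIF4 lie to the right in all 3 genotypes and LHY, CCA1, RVE8 and RVE2 to the left.

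Over 17 libraries, leaving out replicate 2 of pifQ at 22°C, PRR7 and PRR5 were the most alike pair of the family, with a Pearson correlation of 0.952 of log2(CPM + 1). The other pairs among PRR7, PRR5, PRR3 and TOC1 had between 0.458 and 0.624. These correlations describe 17 libraries that share their 6 groups. Differences between groups, such as that of temperature for PRR7 and PRR5, enter them. Of 11287 genes with a mean of at least 10 CPM, those most like PRR7 were AT3G47160 (0.986), AT1G56300 (0.985) and COL5 (0.985), a CONSTANS-like gene. Those most like PRR5 were TLP2 (0.965), again COL5 (0.960) and AT1G73480 (0.958). PRR3 and TOC1 had looser neighbours, with AT3G62550 (0.833), AMY3 (0.810) and RbcX1 (0.808) for PRR3, and AT2G45250 (0.848), PLA2-ALPHA (0.841) and NYC1 (0.835) for TOC1. The names depended on the measure. By Spearman's correlation 0 of the 3 genes named for PRR7, 1 of 3 for PRR5, 2 of 3 for PRR3 and 1 of 3 for TOC1 were again among the 3 most alike. PRR9 had too few counts for its likeness to be described.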

How the data were processed

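RNA of whole seedlings was measured by 3′ Tag-Seq in 18 libraries, 3 for each genotype and temperature, grouped by the sample labels. The authors checked reads with FastQC, aligned them with TopHat and Bowtie2 to TAIR10, counted them per gene with HTSeq and deposited the raw counts. Versions and the strand setting are not given in the sources used here, and no annotated gene overlaps a member in TAIR10.1. From the counts, edgeR version 4.0.16 (R version 4.3.3) was run with TMM, filterByExpr and 1 quasi-likelihood model of 6 groups over 18 libraries, without covariates. The biological coefficient of variation was 0.128. SE is the absolute log2 fold change of a second fit, made without an added prior count, over the root of the F of the test. Intervals are centred on the reported log2 fold change. On simulated data for 28°C against 22°C in Col-0, the test called 191 of 200 genes given a log2 fold change of 1.5, and 15 unchanged genes of the 17898 run. The 200 were drawn only from genes above a floor of mean CPM, so that smaller changes and genes of lower counts were not tried. The study calls its replicates biological, and the labels do not say what they share. No molecular identifiers are described.

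Members and gene lists were chosen with earlier results of these data known. Genes named were the members, the listed clock and targeted genes and, per member, the 3 genes with the highest correlation. Alternatives were RLE, no filter, 1 CPM in 3 libraries, a replicate block, thinned counts, only the libraries compared, each library left out, Spearman's correlation or all 18 libraries for likeness, DESeq2 version 1.42.0, and an added 2-fold cutoff. The planned comparison of protein sequences was not run.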

Additional observations from a re-analysis of the deposited data

How the results depend on the processing

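PRR7 and PRR5 kept their call for temperature in each genotype under all 25 alternatives. With a change of at least 2-fold added, 1 member instead of 2 was called for temperature in Col-0. For the libraries labelled hec1hec2 against Col-0 at 22°C, 2 members instead of 1 were called without the filter and in models of only the libraries compared, which also called 1 instead of 0 for the interaction with hec1hec2. Leaving out 1 library gave from 2 to 4 members for temperature in the libraries labelled hec1hec2, from 2 to 3 in pifQ and from 1 to 3 for the libraries labelled hec1hec2 against Col-0 at 22°C. Of 900 values of single members, 858 kept direction and call, 14 became called, 1 lost its call and 27 changed sign, none of them called. The cause was not tested.

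The sign changes were these. PRR3 in Col-0 for temperature was -0.0014 with RLE, -0.0061 without the filter, -0.010 in the libraries compared alone and from -0.17 to 0.15 with 1 library left out. Thinned counts gave 0.097 for PRR5 and 0.026 for TOC1 (libraries labelled hec1hec2 against Col-0 at 28°C), -0.017 for PRR3 (pifQ against Col-0 at 28°C) and -0.055 for PRR7 (interaction with pifQ). With 1 library left out, PRR3 in pifQ ranged from -0.15 to 0.76 for temperature, from -0.67 to 0.23 against Col-0 at 22°C, from -0.27 to 0.26 against Col-0 at 28°C and from -0.17 to 0.73 for the interaction. PRR7 in pifQ ranged from -0.066 to 0.30 against Col-0 at 22°C and from -0.23 to 0.14 for the interaction. Between the libraries labelled hec1hec2 and Col-0 at 28°C, PRR5 ranged from -0.11 to 0.027 and TOC1 from -0.12 to 0.070. Of the 3 genes most like each member, all 18 libraries kept 2 for PRR7, 2 for PRR5, 0 for PRR3 and 1 for TOC1.

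Replicate numbers were not taken to pair the samples, since only 5 of 45 correlations between libraries of the same number exceeded 0.1, although 13 of 18 libraries correlated best with their own number, which is a hint of pairing from the data and not from the design. With the replicate number as a block, TOC1 was called as higher at 28°C in the libraries labelled hec1hec2 (FDR = 0.032) and in pifQ (FDR = 0.0499), which gave 4 and 3 members, and it changed no other member's call. Counts over all genes moved more than those of the members. For the libraries labelled hec1hec2 against Col-0, 308 genes at 22°C and 260 at 28°C became 466 and 504 without the filter, 732 and 786 in the libraries compared alone, and from 130 to 647 and from 87 to 705 with 1 library left out. For pifQ against Col-0, 10 genes at 22°C and 265 at 28°C became 98 and 405 without the filter, 5 and 638 in the libraries compared alone, and from 5 to 222 and from 138 to 750 with 1 library left out, and 26 at 22°C with DESeq2. The pifQ libraries alone gave 2353 genes for temperature instead of 4952. The interactions had 3 genes (hec1hec2) and 11 (pifQ), against 36 and 54 without the filter, 52 and 1 in the libraries compared alone, 14 and 32 with DESeq2, 6 and 6 with the block, 7 and 7 with thinned counts, and from 3 to 38 and from 2 to 31 with 1 library left out. RLE (5) and a filter at 1 CPM (7) also moved the interaction with pifQ.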
